A study of Saccharomyces cerevisiae with 12 samples.

Results

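The genes examined here encode the proteasome of Saccharomyces cerevisiae and the transcription factor that drives it. They were taken by symbol as the 32 genes of the 20S core particle and the 19S regulatory particle together with RPN4, which makes 33 genes out of 5449 measured. Each of the 33 had a probe set of its own on the array. RNA came from 4 groups of 3 arrays, namely H2B R95A with rapamycin, H2B R95A untreated, H2B WT with rapamycin and H2B WT untreated. In H2B R95A an alanine replaces arginine at residue 95 of histone H2B. Rapamycin, an inhibitor of the TOR complex that couples growth to nutrients, was given at 200 ng/ml for 30 min to cultures in exponential growth, and each untreated group received none. Both strains derived from the MATa parent FY406, which lacks its chromosomal genes for H2A and H2B, as (hta1-htb1)Δ::LEU2 and (hta2-htb2)Δ::TRP1, and carries his3Δ200, leu2Δ1, ura3-52, trp1Δ63 and lys2-128δ, so that all H2A and H2B came from a plasmid with a HIS marker. On all 12 arrays the deleted HTB2 lay between 5.44 and 6.07, while the deleted HTA2 lay between 11.29 and 11.76 and shares near-identical sequence with HTA1. The probe sets cannot tell the R95A allele from the wild-type one. The mutant was a single strain of a histone library, and nothing states that the replicates were separate cultures, so the p-values measure only the spread between these arrays.

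The proteasome degrades proteins that carry chains of ubiquitin. Its 20S core is a barrel made of outer α rings and inner β rings, with the active sites facing a closed chamber. The 19S particle sits on the end of the barrel, where its lid removes the ubiquitin and the ATPases of its base unfold the substrate and thread it into the core. In yeast most proteasome genes share a promoter element bound by Rpn4, a zinc finger activator that the proteasome itself destroys within minutes, so that Rpn4 accumulates when proteolysis falls behind and the genes are then transcribed more.

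Signals are RMA values on a log2 scale, and a change is a difference of group means, as H2B R95A minus H2B WT or as rapamycin minus untreated, so that 1 stands for 2-fold. The threshold for a call, here named the test, was a limma p under 0.05 after Benjamini-Hochberg adjustment over 5498 probe sets. The proteasome genes were well measured, since the lowest signal of any of them on any array was 8.65 and the highest was 10.93, against 1.37 for the 95th percentile of the Schizosaccharomyces pombe probe sets that the same array carries. RNA came from whole cultures, so fewer cells of a kind and less RNA per cell cannot be told apart. The median signal of the tested probe sets lay between 7.25 and 7.30 on every array. The parent is listed as MATa, yet the mean signal of 7 a-specific genes was 4.42 to 5.51 on the H2B R95A arrays and 8.25 to 10.13 on the H2B WT arrays. That of 4 α-specific genes was also lower in the mutant, at 3.48 to 3.89, against 4.38 to 4.97 on the H2B WT arrays. The replicate 1 arrays stood apart in every group. Their mean signal of 12 glucose-repressed genes was 10.55 in H2B R95A with rapamycin, 10.51 in untreated H2B R95A, and 10.33 in H2B WT with rapamycin and untreated alike, and it lay between 6.60 and 8.84 on the other arrays. That list was chosen with it known from an earlier analysis of these data that the replicate 1 arrays stood apart, so its values are only a description. Values without the replicate 1 arrays are given beside the results, and the part of culture state in any of them was not tested.

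None of the 33 genes passed the test in any of the 5 comparisons, namely the untreated strains, the treated strains, rapamycin in the mutant, rapamycin in the wild type, and the difference of these last responses. Over all tested probe sets the share past the test was 0.4% between the untreated strains, 0.346% between the treated strains and 0% in the other 3 comparisons. A count of 0 among 33 genes was thus near the background everywhere. At an unadjusted p under 0.05 in limma, RPN4 was the only 1 of the 33, and only with rapamycin in H2B R95A, where 17.3% of all probe sets lay under that value. The shares for the other comparisons, with 0 of the 33, were 4.93% between the untreated strains, 1.51% between the treated strains, 4.27% with rapamycin in H2B WT and 0.146% for the difference between the responses. Cyber-T, the test that the study's methods name, was run with settings chosen here and read at adjusted p under 0.05. The study's own threshold was an unadjusted p of 0.01 with a 2-fold change, so these counts do not repeat its calls. Cyber-T also called 0 of the 33 in all 5 comparisons. It called 0.509% of all probe sets between the untreated strains, 0.546% between the treated strains, 4.64% with rapamycin in H2B R95A, 0.127% in H2B WT and 0% for the difference.

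RPN4 had the widest spread of group means among the 33 genes. Its signal was 10.51, 10.55 and 10.86 in H2B R95A with rapamycin, and 10.46, 10.07 and 9.70 in untreated H2B R95A, in the order of replicates 1, 2 and 3. All 3 treated arrays of the mutant lay above all 3 untreated arrays, a separation shown by 8.51% of all tested probe sets in this direction and by 9.37% in the opposite direction. The change was 0.56 (standard error 0.25, 95% interval 0.01 to 1.12), or 1.48-fold, and it did not pass the test (adjusted p = 0.283 from limma). The gap between arrays of the same number was 0.05 for replicate 1, 0.48 for replicate 2 and 1.16 for replicate 3. The labels do not pair these arrays, and the deviations of the replicate 3 arrays from their group means correlated at only 0.01. The untreated array of replicate 3 held the lowest RPN4 signal of the series, and without it the change was 0.38. Without replicate 1 of every group the change was 0.82 and passed the test (adjusted p = 0.0455 from limma), while 713 of the 5498 probe sets passed it as well. Array quality weights gave 0.76 (adjusted p = 0.0294 from limma), with 1030 probe sets past the test. Spike-in centring gave 0.34, which did not pass the test.

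In H2B WT, RPN4 stood at 10.35, 10.66 and 10.61 with rapamycin and at 10.05, 10.74 and 10.72 untreated. These groups overlapped, and the change was 0.04 (standard error 0.25, 95% interval -0.51 to 0.59). It was -0.092 without replicate 1 of every group, -0.19 without replicate 1 of untreated H2B WT alone, the lowest of the 6 arrays, and -0.02 without replicate 2 of H2B WT with rapamycin. The difference between the responses of the mutant and the wild type was 0.52 (standard error 0.36, 95% interval -0.26 to 1.31), and it did not pass the test. It was 0.91 without replicate 1 of every group (adjusted p = 0.577 from limma). These arrays thus do not show that the responses differ.

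Between the strains, RPN4 was at 10.46, 10.07 and 9.70 in untreated H2B R95A and at 10.05, 10.74 and 10.72 in untreated H2B WT. That gave a change of -0.43 (95% interval -0.98 to 0.13, standard error 0.25), with adjusted p = 0.733 from limma. Replicates 2 and 3 of the mutant lay below the wild-type arrays of the same number, by 0.67 and 1.02, and replicate 1 lay above by 0.41. The labels do not pair these arrays, and the deviations of the replicate 3 arrays from their group means correlated at only 0.06. Without replicate 1 of every group the change was -0.84 (adjusted p = 0.122 from limma), and with a replicate block added to that fit it passed the test (adjusted p = 0.0445 from limma), as 10.3% of all probe sets did. With rapamycin the strains differed by 0.10 (standard error 0.25, 95% interval -0.46 to 0.65), and their arrays interleaved. It was -0.012 without replicate 3 of H2B R95A with rapamycin. Spike-in centring subtracts from each array the mean of its poly-A control probe sets. The study's methods do not state that such controls were added. This centring turned the difference of the treated strains to -0.27, with the median over all probe sets at -0.35 instead of 0.02. The low group mean of RPN4 was thus that of untreated H2B R95A, whose 3 arrays enter the comparison with H2B WT as well as that with rapamycin, so the values of those comparisons are not independent.

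**Figure D1:**
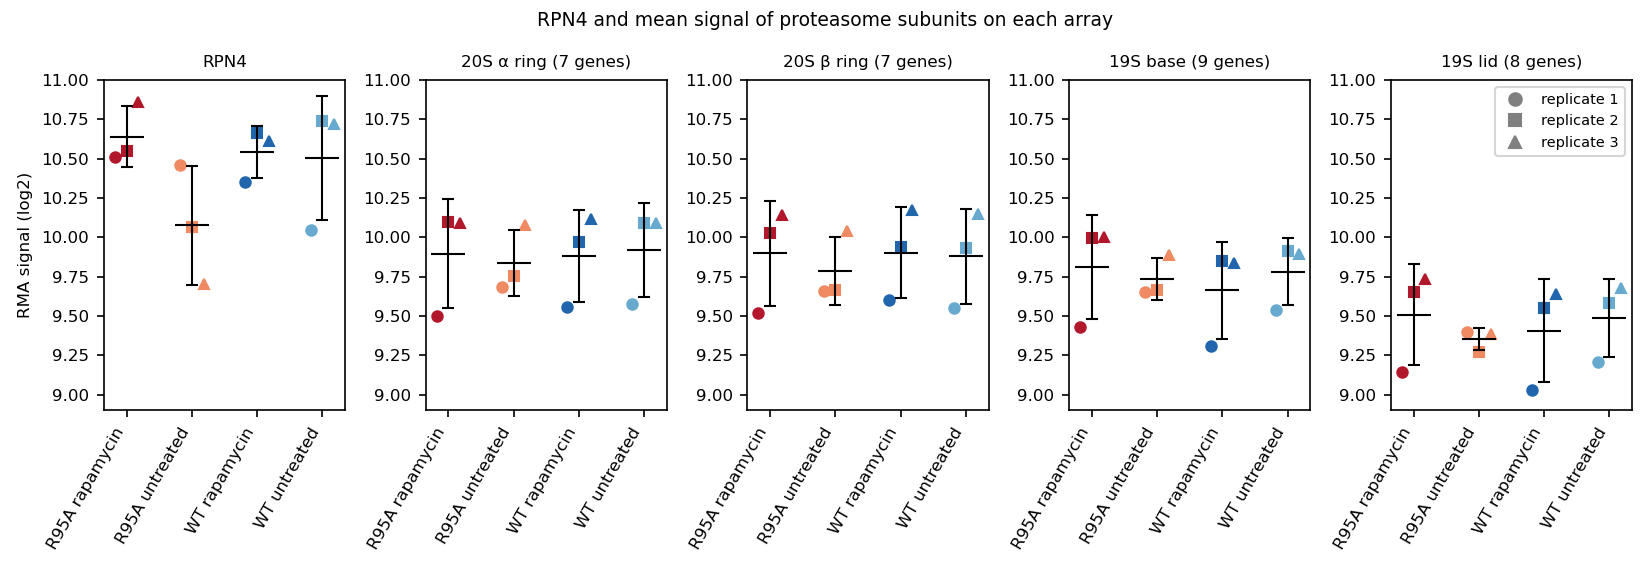
RMA signal (log2, vertical axis) of RPN4 and mean signal of the genes of each proteasome part in the 4 groups, with circles, squares and triangles for replicates 1, 2 and 3, a bar for the group mean and whiskers for 1 SD (n = 3 arrays). RPN4 had its lowest signals on replicate 3 of untreated H2B R95A (9.70) and replicate 1 of untreated H2B WT (10.05), whereas in the parts replicate 1 is the lowest array of every group except for the lid in untreated H2B R95A.

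The 32 subunit genes differed little between untreated H2B R95A and untreated H2B WT. The median change was -0.08, against -0.04 over all tested probe sets, and 6 of the 32 changes were positive, against 45.2% of all. Spike-in centring gave a median of -0.26, against -0.22 over all, and without replicate 3 of untreated H2B WT it was 0.012. The changes ran between -0.33 and 0.11. RPN11, which encodes the metalloprotease of the lid that cuts ubiquitin chains from the substrate, was lowest, with signals of 9.35, 9.08 and 8.95 in H2B R95A and 9.17, 9.35 and 9.83 in H2B WT. Its arrays overlapped because replicate 1 of the mutant was above replicate 1 of the wild type, and the change of -0.33 had a standard error of 0.30. SCL1, the α1 subunit of the core, had a change of -0.24 (standard error 0.26), RPN12, a lid subunit that joins last in assembly, -0.21 (standard error 0.24), and PRE6, the α4 subunit, -0.21 (standard error 0.23). RPN2, a scaffold of the base, was the highest at 0.11 (standard error 0.24). No subunit gene separated the strains, against 2.69% of all probe sets that did so upwards and 4.22% downwards.

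Among same-numbered untreated arrays, which the labels do not pair, the subunits did not keep 1 direction. H2B R95A exceeded H2B WT in 29 of the 32 in replicate 1, in 0 in replicate 2 and in 10 in replicate 3. Over all tested probe sets these shares were 51.4%, 44.9% and 44.9%. Without replicate 1 of every group the median of the subunits was -0.17, against -0.09 over all, and RPN11 stood at -0.58.

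With rapamycin, the subunit genes were again close in the strains. Their median change, H2B R95A minus H2B WT, was 0.09, against 0.02 over all tested probe sets, and 22 of the 32 were positive, against 53.9% of all. After spike-in centring the median was -0.28, against -0.35 over all, and without replicate 1 of H2B WT with rapamycin it was -0.092, against 0.01 over all. RPN2 had signals of 9.67, 10.28 and 9.98 in H2B R95A and 9.36, 10.11 and 9.53 in H2B WT, a change of 0.31 (standard error 0.24). Every array of the mutant was above the array of the same number in the wild type, but the groups overlapped. The ATPase gene RPT4 had 9.50, 10.09 and 10.27 in H2B R95A and 9.36, 9.89 and 9.83 in H2B WT, a change of 0.26 (standard error 0.23). The ATPase gene RPT2, at 0.21, and RPN12, at 0.18, followed. No subunit gene separated the treated strains, against 1.64% of all probe sets upwards and 2.75% downwards.

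Rapamycin in H2B R95A gave the subunits a median change of 0.11, against 0.10 over all tested probe sets, with 26 of the 32 positive, against 59.8% of all. Spike-in centring turned the median of the subunits to -0.11, against -0.12 over all. RPN12 had 9.21, 9.30 and 9.63 with rapamycin and 9.36, 8.80 and 9.13 untreated, a change of 0.28 (standard error 0.24). RPN11 had 8.87, 9.47 and 9.79 with rapamycin, against 9.35, 9.08 and 8.95 untreated, a change of 0.25 (standard error 0.30). In replicates 2 and 3 of both genes the treated array was the higher, and in replicate 1 it was the lower. RPN13, a ubiquitin receptor of the base, had a change of 0.25 (standard error 0.21), SCL1 of 0.26 (standard error 0.26), PUP3, the β3 subunit, of 0.24 (standard error 0.22), and PRE6 of 0.22 (standard error 0.23). The most negative was RPT6, another ATPase of the base, at -0.18 (standard error 0.23). Between same-numbered arrays, which the labels do not pair, replicate 1 held 4 positive changes among the 32 subunits, replicate 2 held 32, and replicate 3 held 20. Over all tested probe sets the shares were 50.5%, 58.8% and 55.9%. Without replicate 1 of every group the median was 0.27, against 0.14 over all, and RPN11 was at 0.61. No subunit passed the test in that fit, in which 13% of all probe sets did. With a replicate block added, a setting chosen after seeing the data that leaves 3 residual degrees of freedom, 6 subunits and RPN4 passed, a share of 21.2% of the 33 against 37.6% of all.

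In H2B WT, rapamycin gave a median change of -0.06 over the subunits, against 0.04 over all tested probe sets, with 9 of the 32 positive, against 56.3% of all. The sign of the median was not stable, since it was 0.13 without replicate 1 of H2B WT with rapamycin, 0.029 without replicate 3 of untreated H2B WT and 0.035 with array quality weights. The ATPase genes were at the low end. RPT2 had 9.06, 9.50 and 9.79 with rapamycin and 9.35, 9.80 and 10.03 untreated, a change of -0.28 (standard error 0.25). RPT4 had 9.36, 9.89 and 9.83 with rapamycin, against 9.77, 10.08 and 10.04 untreated, a change of -0.27 (standard error 0.23). For both genes each treated array was below the untreated array of its own number, although the groups overlapped. RPT6 was at -0.23 (standard error 0.23) and RPT3 at -0.18 (standard error 0.27), whereas RPT5 was at 0.01 (standard error 0.34). No member separated the groups, against 3.97% of all probe sets upwards and 3.73% downwards.

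**Figure D2:**
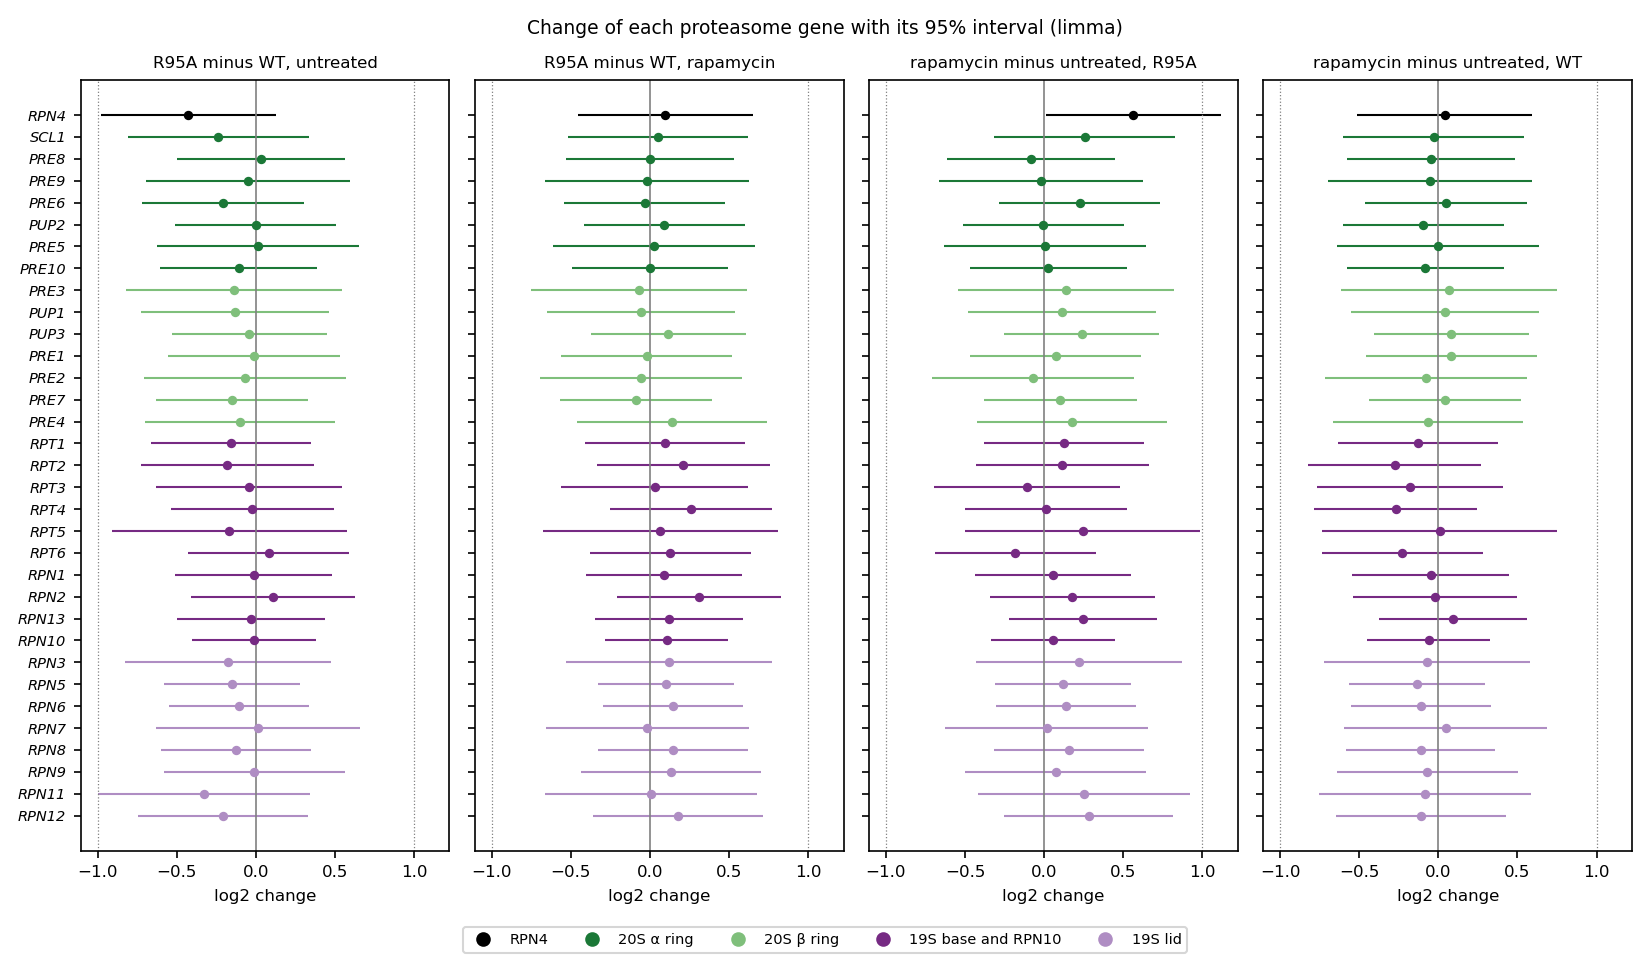
Log2 change (horizontal axis) of each of the 33 genes in the 4 comparisons, with bars for the 95% interval from limma, colours for the part of the proteasome, and dotted lines at a 2-fold change. Every interval except that of RPN4 with rapamycin in H2B R95A (0.01 to 1.12) crosses 0, and no interval of a subunit reaches the dotted lines.

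The 95% intervals give the precision of each single change, under the RMA scaling and the spread between these arrays. They do not hold jointly over the genes. In each of the 4 pairwise comparisons all 32 subunit genes had a 95% interval inside a 2-fold change in either direction. Of the 5498 tested probe sets, 3090 had so narrow an interval between the untreated strains, 3941 between the treated strains, 2776 with rapamycin in H2B R95A and 3604 with rapamycin in H2B WT. The widest bounds among the subunits were just inside it, -0.996 for RPN11 between the untreated strains and 0.987 for RPT5 with rapamycin in H2B R95A. For the difference between the responses 23 of the 32 lay inside 2-fold, against 1830 of all.

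The difference between the responses was positive in 29 of the 32 subunit genes, with a median of 0.15, against 56.0% positive and a median of 0.05 over all tested probe sets. RPT2 and RPN12 had the highest values, each 0.39 (standard error 0.35). RPN11 was at 0.33 (standard error 0.43), and PRE8, the α2 subunit, was the lowest at -0.03 (standard error 0.34). None passed the test or had an unadjusted p under 0.05. With spike-in centring the median was -0.04, against -0.14 over all. Left-out arrays moved it between 0.00, without replicate 1 of H2B WT with rapamycin, and 0.32, without replicate 1 of H2B R95A with rapamycin.

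The particle can also be read by its parts. Between the treated strains, H2B R95A minus H2B WT was positive in 17 of the 18 genes of the 19S particle, the exception being RPN7 at -0.02, and in 5 of the 14 genes of the 20S core. The median was 0.12 in the 19S particle and -0.01 in the 20S core, against 0.02 over all tested probe sets. The share of positive changes over all probe sets stands with the treated strains above. Without replicate 1 of H2B WT with rapamycin, the median of all 32 subunits was -0.09. With rapamycin in H2B WT, 3 of the 18 genes of the 19S particle and 6 of the 14 of the core were positive, with medians of -0.10 and -0.02. With rapamycin in H2B R95A the medians were 0.12 and 0.09. The 7 α ring genes, which form the gate of the barrel, had medians of -0.05, 0.00, 0.01 and -0.05 in the order of the comparison of untreated strains, of treated strains, of rapamycin in H2B R95A and of rapamycin in H2B WT. The 7 β ring genes had -0.10, -0.06, 0.11 and 0.04 in the same order. Among them PRE3, PUP1 and PRE2 encode the caspase-like, trypsin-like and chymotrypsin-like active sites, and their 12 changes in these comparisons ran between -0.14 and 0.14. The 9 genes of the base had medians of -0.03, 0.12, 0.11 and -0.13, and the 8 of the lid had -0.14, 0.13, 0.15 and -0.10. RPN10, a ubiquitin receptor at the joint of base and lid, had changes between -0.06 and 0.11. No part was tested as a list, and no difference between parts was tested.

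A relation between the lid and the core, which was not among the planned results, varied over the single arrays of untreated H2B R95A. There the mean deviation of the lid genes from their own averages, minus that of the core genes, was 0.17, 0.00 and -0.24 in replicates 1, 2 and 3. On the other 9 arrays it lay between -0.11 and 0.08. On replicate 3 of the untreated mutant, core genes such as PRE9 (α3), at 9.61, and PUP1, at 9.77, were above their averages over the arrays, and RPN4, RPN11 and RPN5, at 9.70, 8.95 and 9.50, were below theirs. The lid genes RPN7 and RPN9 were above theirs, by 0.38 and 0.11. Other core genes lay near their averages on that array, with PRE7 at 0.01, SCL1 at 0.02 and PUP3 at -0.007 relative to them.

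**Figure D3:**
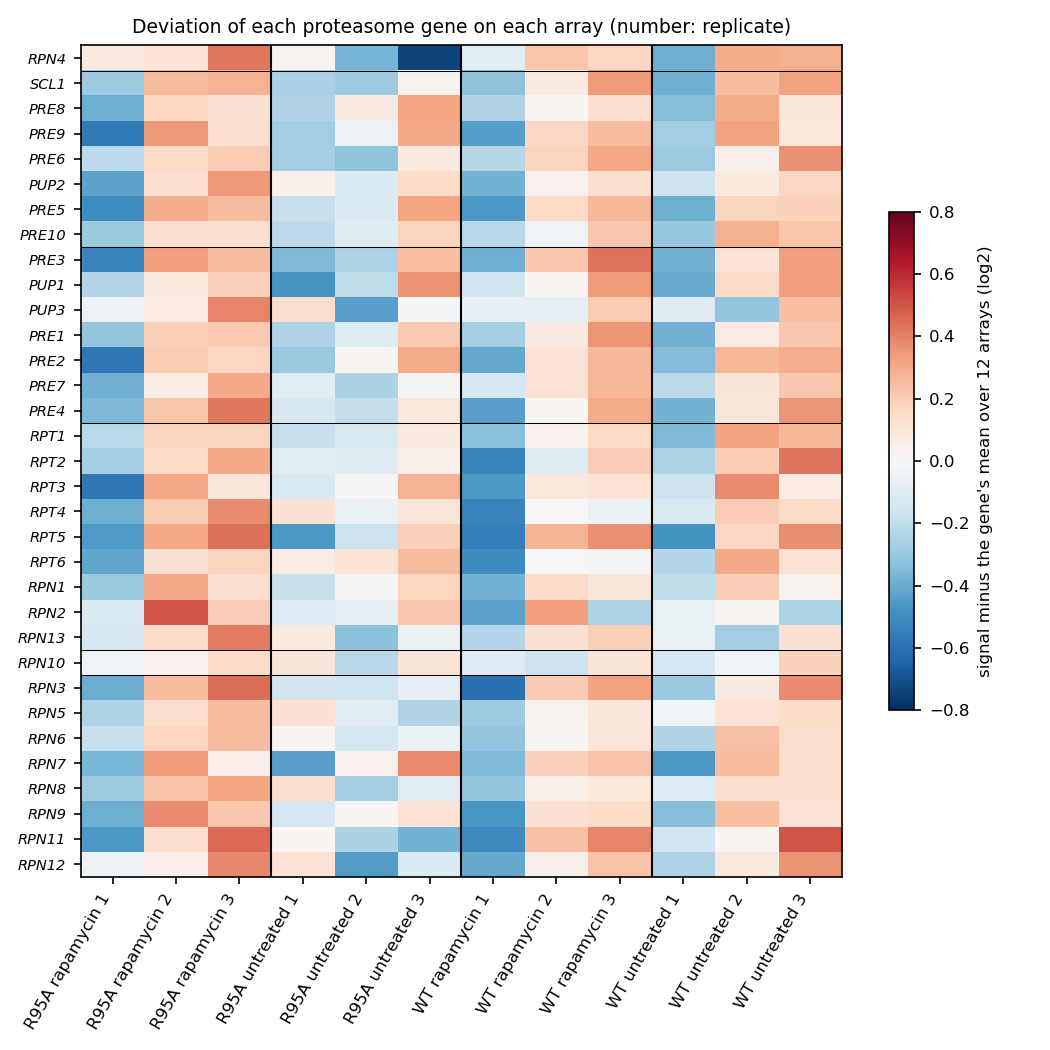
Signal of each of the 33 genes (rows, grouped by part) on each of the 12 arrays (columns) minus the mean of that gene over the arrays, on a log2 scale, with blue for lower and red for higher. Replicate 1 arrays are blue over most subunits in all 4 groups, in untreated H2B R95A over 21 of the 32, while untreated H2B R95A replicate 3 is red in most of the core and blue for RPN4, RPN5 and RPN11.

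For most of the subunits the SD between arrays of a group was larger than the range of the 4 group means. An SD of single arrays and a range of means are unlike measures, so their equality is no reference value. The SD also holds the spread that went with the replicate number. The pooled SD within groups had a median of 0.28 over the 32 genes, and the highest minus the lowest of the 4 group means had a median of 0.17. The SD was the larger in 28 of the 32, with RPT4, RPT6, RPN2 and RPN13 as exceptions. Over all tested probe sets the medians were 0.37 for the SD and 0.44 for the group means. RPN4, like the medians over all tested probe sets, had the larger value for the group means, with 0.56 against an SD of 0.30. RPT5 had the highest SD of the subunits, 0.44, and RPN10 the lowest, 0.15. PRE5, the α6 subunit, had nearly the same mean in all groups, with a spread of 0.03 and an SD of 0.37.

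**Figure D4:**
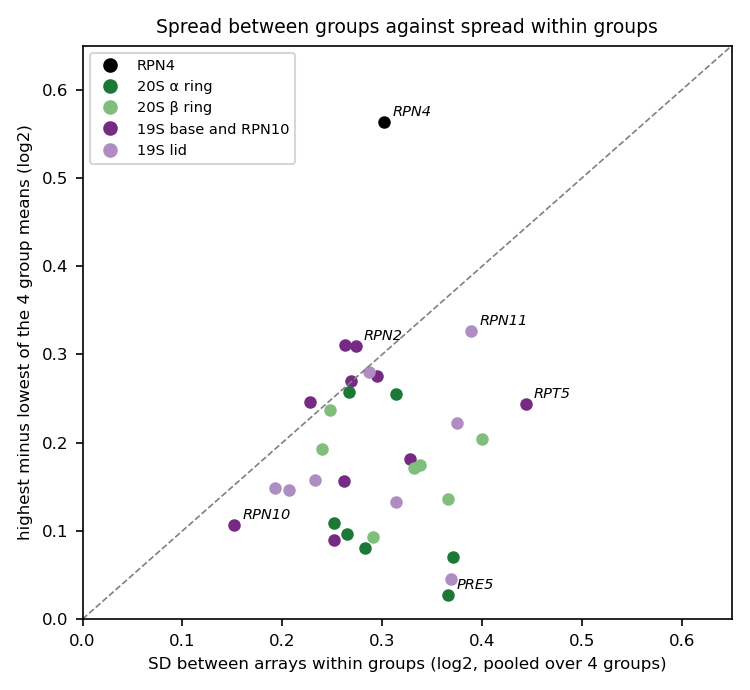
For each of the 33 genes, the highest minus the lowest group mean (vertical axis, log2) against the SD between arrays within groups (horizontal axis, log2, pooled over 4 groups of 3 arrays), with a dashed line where they are equal. RPN4 stands alone at 0.56 and 0.30, and 28 of the 32 subunits lie under the line. The axes hold unlike measures, so the line is only a guide to the eye.

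Much of the spread within groups went with the replicate number. In H2B R95A with rapamycin all 32 subunit genes were lower on replicate 1 than on the mean of replicates 2 and 3, in untreated H2B R95A 21 were, in H2B WT with rapamycin 32, and in untreated H2B WT 30. Over all tested probe sets these shares were 49.7%, 48.2%, 48.8% and 50.6%. The median gap of the subunits was -0.56, -0.14, -0.50 and -0.49 in the same groups. RPT5 showed it most, at -0.83, -0.87 and -0.74 in H2B R95A with rapamycin, H2B WT with rapamycin and untreated H2B WT. In untreated H2B R95A the gaps of the 8 lid genes ran between -0.64 for RPN7 and 0.40 for RPN12, with a median of 0.20. Of the within-group variance, the replicate number took up 76.4% in the 32 subunits, 65.7% over all tested probe sets and 8.19% in RPN4. Some share arises by chance, since the replicate number uses part of the degrees of freedom within groups. No reference for that share was computed, so the low value of RPN4 is not shown to be a real part. The direction of RPN4 on replicate 1 was not shared by the groups. It was lower by 0.20 in H2B R95A with rapamycin, higher by 0.58 in untreated H2B R95A, lower by 0.29 in H2B WT with rapamycin and lower by 0.68 in untreated H2B WT. What the replicate numbers stand for is not stated. The glucose-repressed genes, listed with the replicate 1 arrays already known to stand apart, moved with the same arrays.

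The subunit genes varied together across the arrays. The median Pearson correlation of their 496 pairs over 12 arrays was 0.77, and it was 0.53 after the mean of each replicate number had been subtracted. These are descriptions over arrays that share groups and replicate numbers. No median over pairs of other genes was computed, and CAJ1, outside the list, reached 0.98 with the mean of the subunits. The lid genes kept the most of their median correlation, with 0.83 and 0.80 before and after the subtraction. Single lid pairs ran down to -0.40 after it. RPN4 followed the subunits less, with a median correlation of 0.34 on the signals, running between 0.02 for RPN2 and 0.72, and of 0.46 after the subtraction. Among the 33 genes there were close neighbours on the chromosomes. PRE4 and RPN12 had 1 gene between them, as did RPT4 and RPN8, and PRE2 and RPN7 had 4. Over the 12 arrays their correlations were 0.82, 0.88 and 0.93, and after the subtraction 0.91, 0.84 and 0.40.

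Related genes were taken as 5 lists, all of whose genes were measured. Besides the ubiquitin pathway, the lists covered transcription factors known to act on RPN4 and cytosolic chaperones under Hsf1. None of the listed genes passed the test in any comparison. Of 18 assembly and accessory factors, 12 had a positive change with rapamycin in H2B R95A and 10 in H2B WT, with medians of 0.16 and 0.09. CIC1, which is known as an adaptor of the proteasome and also as a nucleolar factor of ribosome assembly, had the largest values. Its signal was 4.70, 4.12 and 4.84 in H2B R95A with rapamycin and 6.31, 8.26 and 7.70 in untreated H2B R95A. The groups did not overlap, as for 9.37% of all tested probe sets in this direction. The change of CIC1, -2.87 (standard error 0.63), missed the test at adjusted p = 0.0941 in limma. In H2B WT its signal was 4.99, 3.55 and 4.05 with rapamycin and 6.46, 7.14 and 4.79 untreated. These groups overlapped by 1 array, with a change of -1.93 (standard error 0.63). TMA17, a chaperone of base assembly induced under stress, was at 0.74 in the mutant and 0.16 in the wild type. POC4, a chaperone of the α ring, was at -0.80 and -0.48, and SPG5, a regulator of the proteasome in stationary phase, at 0.64 and 0.21. UMP1, the chaperone of core maturation, was at 0.13 and -0.21.

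Of 24 genes of ubiquitin supply and conjugation, 16 were positive with rapamycin in H2B R95A, with a median of 0.22, and 14 in H2B WT, with a median of 0.07. The negative end was made of the fusion genes that encode ubiquitin joined to a ribosomal protein. RPL40B was at -1.48 (standard error 0.49; limma, adjusted p = 0.165) in the mutant and at -0.62 in the wild type, RPL40A at -0.997 and -0.36, and RPS31 at -0.95 and -0.20. RPL40A and RPL40B are near-identical copies, whose signals may be mixed. The 119 ribosomal protein genes measured had medians of -1.33 in the mutant and -0.47 in the wild type. The stress-induced polyubiquitin gene UBI4 was at 0.30 and 0.07. HRD1, the ubiquitin ligase of the endoplasmic reticulum, had signals of 7.93, 8.15 and 8.29 in H2B R95A with rapamycin and 7.49, 7.55 and 7.21 in untreated H2B R95A. The groups did not overlap, as for 8.51% of all tested probe sets in this direction. In this list 5 of the 24 genes separated upwards and 2 downwards. The difference of HRD1, 0.71 (standard error 0.21), missed the test at adjusted p = 0.139 in limma.

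MUB1, which works with the ligase Ubr2 to mark Rpn4 for destruction, had 7.46, 6.85 and 6.97 in untreated H2B R95A and 7.40, 7.71 and 8.01 in untreated H2B WT. At -0.62 (standard error 0.24) it missed the test with adjusted p = 0.733 in limma, and, as for RPN4, the mutant was the higher in replicate 1 and the lower in replicates 2 and 3. With rapamycin, MUB1 was at 0.38 in H2B R95A and -0.16 in H2B WT, and UBR2 was at 0.43 in each strain. Of the 6 transcription factors known to act on RPN4, 5 were positive with rapamycin in H2B R95A and 4 in H2B WT, with medians of 0.28 and 0.20. HSF1, the heat shock factor, was at 0.36 and -0.06, and MSN4, a general stress factor, at 0.46 and 0.28. Between the untreated strains HSF1 was at -0.50, the most negative of the 6.

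Cdc48 is the segregase that pulls ubiquitylated proteins out of complexes for the proteasome. Of the 14 genes of Cdc48, its cofactors and the shuttle factors, 12 were positive with rapamycin in H2B R95A, with a median of 0.24, and 6 in H2B WT, with a median of -0.02. Between the untreated strains 2 were positive, with a median of -0.26. UBX3, a cofactor of Cdc48, had the largest change in the mutant, 0.73, against -0.02 in the wild type, and RAD23, a shuttle factor, was at -0.40 and -0.42. Of the 17 cytosolic chaperones under Hsf1, 13 were positive in H2B R95A, with a median of 0.26, and 7 in H2B WT, with a median of -0.02. SSA3, an inducible Hsp70 gene, was the most extreme, at 1.15 with rapamycin in the mutant, 0.22 in the wild type and -0.94 between the untreated strains. Its signal in untreated H2B R95A was 11.53, 8.97 and 10.04, a range wider than any of these changes.

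**Figure D5:**
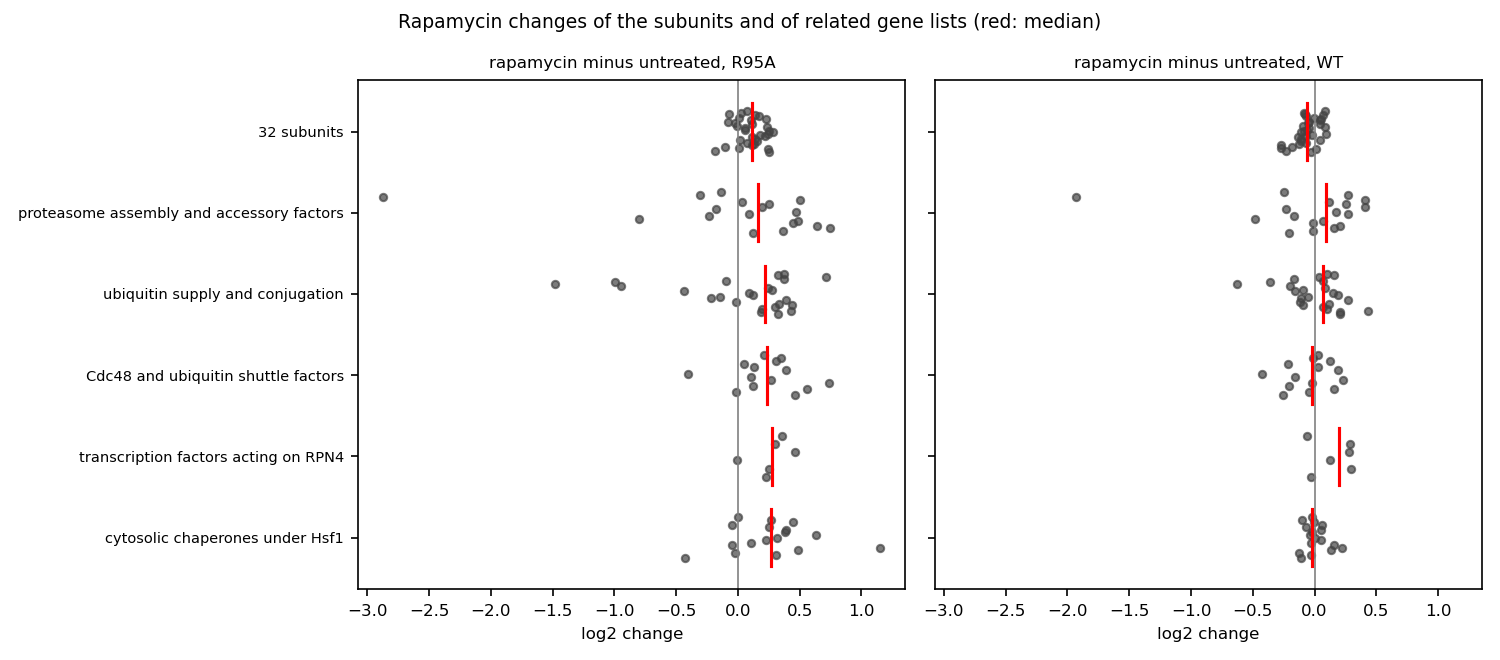
Log2 change with rapamycin (horizontal axis) of each gene in the 32 subunits and in the 5 related lists, in H2B R95A on the left and H2B WT on the right, with a red bar at the median. The subunits lie within -0.18 to 0.28 in H2B R95A and -0.28 to 0.10 in H2B WT, while the related lists spread further, down to -2.87 for CIC1.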

How the data were processed

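The authors extracted total RNA with hot phenol, hybridised it to Affymetrix GeneChip Yeast Genome 2.0 arrays and read the scans into FlexArray 1.6.3, where RMA corrected the background, normalized by quantiles and summarised probes. The deposited values are therefore log2 signals. The RMA version is not given in the sources used here. All 12 columns were mapped to a sample, 0 were left over, and 0 pairs of arrays were identical. Of 10928 probe sets, 5498 with 1 S. cerevisiae gene were tested, and 1746 S. pombe, 213 control, 3470 unannotated and 1 shared probe sets were not. A gene with several probe sets was given by that of the highest mean.

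limma 3.58.1 in R 4.3.3 fitted a mean for each group to all 12 arrays, with variances moderated along a trend on mean signal and p-values adjusted by Benjamini-Hochberg over the 5498. Tables were read with R itself and the series and sample descriptions with jsonlite 2.0.0, and Python 3 drew the figures with matplotlib. The method was run on simulated data with independent noise for each gene and array. That noise lacked the spread shared by replicate number, so the run does not test the method under it. The number of arrays limits the precision, and no exact permutation of 3 against 3 arrays reaches a p below 0.1.

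Statistics were given in each comparison for RPN4 and for subunits among the 6 of smallest p, for the active sites and RPN11, for up to 4 genes of each pathway list by size of change, and for the 5 genes most correlated with RPN4 or with the subunits. UBI4, UMP1, UBR2, RAD23 and other genes named outside this rule were chosen after their values were seen. The members and lists were chosen with earlier results of these data known. Replicate numbers were checked through the correlation of deviations from group means. They paired the arrays of the treated strains (0.88, 0.78 and 0.74) and of rapamycin in H2B WT (0.84, 0.41 and 0.77), but not all of those of the untreated strains (0.57, 0.83 and 0.06) or of rapamycin in H2B R95A (0.42, 0.48 and 0.01), a pairing read from the data and not from the labels. Sequences and promoters were not analysed here.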

Additional observations from a re-analysis of the deposited data

How the results depend on the processing

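Among the 24 alternatives, the settings that brought members past the test were these. Array quality weights gave 1 member with rapamycin in H2B R95A (RPN4, 0.76), as 18.7% of all probe sets passed. Leaving out replicate 1 of every group gave 1 (RPN4, 0.82), as 13% passed. The same with a replicate block, chosen after seeing the data and fitted to 8 arrays with 3 residual degrees of freedom, gave 7 of the 33 (21.2%, RPN4 at 0.82 with PUP3, RPN13, RPN3, RPN8, RPN11 and RPN12) as 37.6% passed, and 1 between the untreated strains (RPN4, -0.84, adjusted p = 0.0445 from limma) as 10.3% passed. The cause was not tested. A replicate block on all arrays gave 0 members in every comparison and RPN4 0.56 with rapamycin in H2B R95A (adjusted p = 0.144 from limma), and changed no member's call. With spike-in centring the median of the subunits between the treated strains was -0.28 and RPN4 was -0.27, in a scaling whose spike-in means lay between 4.35 and 5.93. RPN4 with rapamycin in H2B WT was -0.092 without replicate 1 of every group, with or without the block. Leaving out single arrays gave 0 members past the test throughout. RPN4 then lay between -0.65 and -0.24 for the untreated strains, -0.012 and 0.16 for the treated strains, 0.38 and 0.76 with rapamycin in H2B R95A, -0.19 and 0.16 in H2B WT and 0.34 and 0.75 for the difference. The subunit medians lay between -0.21 and 0.01, -0.09 and 0.26, 0.01 and 0.27, -0.22 and 0.13, and 0.00 and 0.32 in the same order. Of 3808 single-subunit values under an alternative, 415 changed sign with none past the test, 6 passed it with the same sign and 0 passed it with the sign turned.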

Other observations

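Once the mean of each replicate number had been subtracted, the 5 highest correlations with RPN4 among all tested genes were those of EIS1 (0.99), YGR130C (0.98), MSC3 (0.98), SIC1 (0.97) and STP2 (0.97), of which EIS1 and YGR130C encode eisosome-associated proteins, SIC1 the inhibitor of S-phase cyclin kinase and STP2 an activator of amino acid permease genes. The median subunit reached 0.46 by the same measure. The genes most like the mean of the 32 subunits were CAJ1 (0.92), an Hsp40 gene, followed by RNP1 (0.91), NAP1 (0.91), YHR213W-A (0.90) and HMS1 (0.90). These are the highest correlations among 5498 probe sets over 12 arrays that share groups, and are given as descriptions.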
